A study of Mus musculus with 6 samples.

Results

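Guanylin (Guca2a), uroguanylin (Guca2b) and their shared receptor guanylate cyclase C (Gucy2c) were followed in mouse bladder at embryonic day 18.5. The 3 genes were taken by symbol from the platform annotation, out of 18193 genes with a probe set, and each had 1 probe set. Bladders of 3 Get1 -/- mice (null) and 3 Get1 +/- mice (heterozygous, the control group) had been measured on 1 array each. Get1, now called Grhl3, encodes a grainyhead-like factor that controls genes of surface epithelia. Both groups carry at least 1 mutant Get1 allele, wild-type bladders were not analysed here, and the labels name neither the strain nor the design of the allele. The question named for the series is what lies behind the bladder defects of the null animals.

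Guanylin and uroguanylin are small peptides that intestinal epithelium secretes as prohormones into the lumen. They bind the extracellular domain of guanylate cyclase C on the apical membrane, and the receptor's catalytic domain then makes cyclic GMP. In the gut this second messenger acts through the membrane-bound kinase Prkg2 to open the chloride channel Cftr and to restrain the sodium-proton exchanger Slc9a3, which moves salt and water into the lumen. Guanylin is known mainly from the distal gut, where goblet cells and surface colonocytes make it, and uroguanylin mainly from the proximal small intestine and the kidney.

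Guca2a and Guca2b lie next to each other on chromosome 4, with no other gene that has a probe set between them, and are transcribed from opposite strands. The 250 bases upstream of each RefSeq transcript start (build GRCm38.p6) are shown because these neighbouring, related genes differed in how far their signals moved between the groups. RefSeq promoters were matched for 2 of the 3 genes, and Gucy2c was not among them. The Guca2a stretch is chr4:119637482-119637731 on the plus strand and the Guca2b stretch is chr4:119658946-119659195 on the minus strand. Capitals mark matches to AGATAA, the motif found.
Guca2a: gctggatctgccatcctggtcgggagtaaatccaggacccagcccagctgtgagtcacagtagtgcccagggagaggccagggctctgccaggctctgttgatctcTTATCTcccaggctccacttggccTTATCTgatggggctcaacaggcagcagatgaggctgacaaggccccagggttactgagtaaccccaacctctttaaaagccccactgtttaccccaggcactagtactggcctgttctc
Guca2b: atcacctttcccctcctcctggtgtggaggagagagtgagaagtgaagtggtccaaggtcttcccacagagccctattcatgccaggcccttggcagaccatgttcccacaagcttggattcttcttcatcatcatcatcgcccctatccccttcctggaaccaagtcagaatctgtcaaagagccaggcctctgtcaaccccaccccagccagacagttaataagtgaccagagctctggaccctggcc

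The motifs were searched on both strands and stand for factors of gut epithelium and for the grainyhead family. The Guca2a stretch held AGATAA, read by GATA factors, 2 times on the reverse strand, from 144 and from 120 bases before the start. This motif was present in 9.99% of 32851 promoter stretches of the same length. Of the GATA factor genes on the lists read here, Gata3, Gata4, Gata5 and Gata6 were tested and none was called (limma). Binding was not measured, and whether these sites are used was not tested. TTTAT for CDX factors (37.3% of stretches), CAAAGTCCA for HNF4 (0.384%) and the grainyhead motif AACCGGTT (0.116%) were in neither stretch. The 2 sites in the Guca2a stretch did not overlap, and the Guca2b stretch held none of the motifs searched.

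Guca2a was strongly higher in null bladders. Null arrays 1, 2 and 3 had signals of 1153, 1354 and 1851, whereas heterozygous arrays 4, 5 and 6 had signals of 21.4, 5.34 and 30.6. The groups were far apart, the lowest null signal being 37.6 times the highest heterozygous one, without any offset. In the null arrays guanylin was brighter than 87.3% to 90.7% of all probe sets, and in the heterozygous arrays than 12.9% to 34.4%.

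On the scale log2(signal + 16) Guca2a averaged 10.49 ± 0.34 in null bladders against 5.06 ± 0.58 in heterozygous ones (SD, n = 3 each). A signal of 0 would read 4 on this scale. The difference, null minus heterozygous, was 5.43 (SE 0.34, 95% interval 4.65 to 6.21), a 43.1-fold change on this scale (adjusted p = 3.4e-04, limma with Benjamini-Hochberg adjustment over 12735 genes). Called higher at an adjusted p under 0.05 were 57 of these genes, or 0.448%, and by size the guanylin difference ranked 10 among the 12735. An exact two-sided permutation test of its 3 null against 3 heterozygous arrays gave p = 0.1, the smallest this design allows. Guca2a rose in each of the 16 alternative fits, among them the 6 that left out 1 array (differences 5.11 to 5.67, adjusted p = 0.0015 to 0.0030, limma). The size depended on the offset, with 6.43 for an offset of 1 and 4.18 for an offset of 64, because the heterozygous signals were low. They lay under the dim filter, which removed the dimmest 30% of genes by their mean over the 6 arrays (under 5.80 on the log2 scale, a signal of 39.7). Guca2a thus entered the main test only through its null signals. When all 18193 genes were tested without this filter, Guca2a still passed (adjusted p = 0.0011, limma).

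Guca2b, the uroguanylin gene next to it, stayed dim. The null arrays gave 41.2, 77.5 and 65.5 in signal and the heterozygous ones 38.9, 5.13 and 21.3. The groups did not overlap, but only by a narrow margin, null 1 being 1.06 times heterozygous 4. Groups of this kind, all null above all heterozygous, made up 6.07% of the genes tested. On the log2 scale it averaged 6.24 ± 0.37 in null bladders against 5.13 ± 0.69 in heterozygous ones (SD, n = 3 each), a difference of 1.11 (exact permutation p = 0.1, the smallest possible). Its mean over all arrays was below the dim filter, so Guca2b was left out of the main test. When all 18193 genes were tested the difference did not pass (SE 0.39, 95% interval 0.20 to 2.02, unadjusted p = 0.0228, adjusted p = 0.556, limma).

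Gucy2c, the receptor gene, was also dim and its groups overlapped. Its null signals were 36.8, 38.8 and 118.4, and its heterozygous signals were 44.9, 2.62 and 2.98. Null 3 was the brightest, and heterozygous 4 was brighter than null 1 and null 2. On the log2 scale it averaged 6.19 ± 0.76 in null bladders against 4.80 ± 0.98 in heterozygous ones (SD, n = 3 each), a difference of 1.39 (exact permutation p = 0.3). Gucy2c was left out of the main test by the same filter, and without the filter it did not pass (SE 0.56, 95% interval 0.09 to 2.70, unadjusted p = 0.0397, adjusted p = 0.641, limma). Without null 3 the difference was 0.95. The intervals of both dim genes, which are not adjusted for the number of genes, ran from just above 0 to over 2 on the log2 scale, so these arrays leave the size of their change uncertain by several fold. Which cells gave these low signals was not measured, and in RNA of a whole organ fewer cells of a type and less RNA per cell cannot be told apart.

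**Figure D1:**
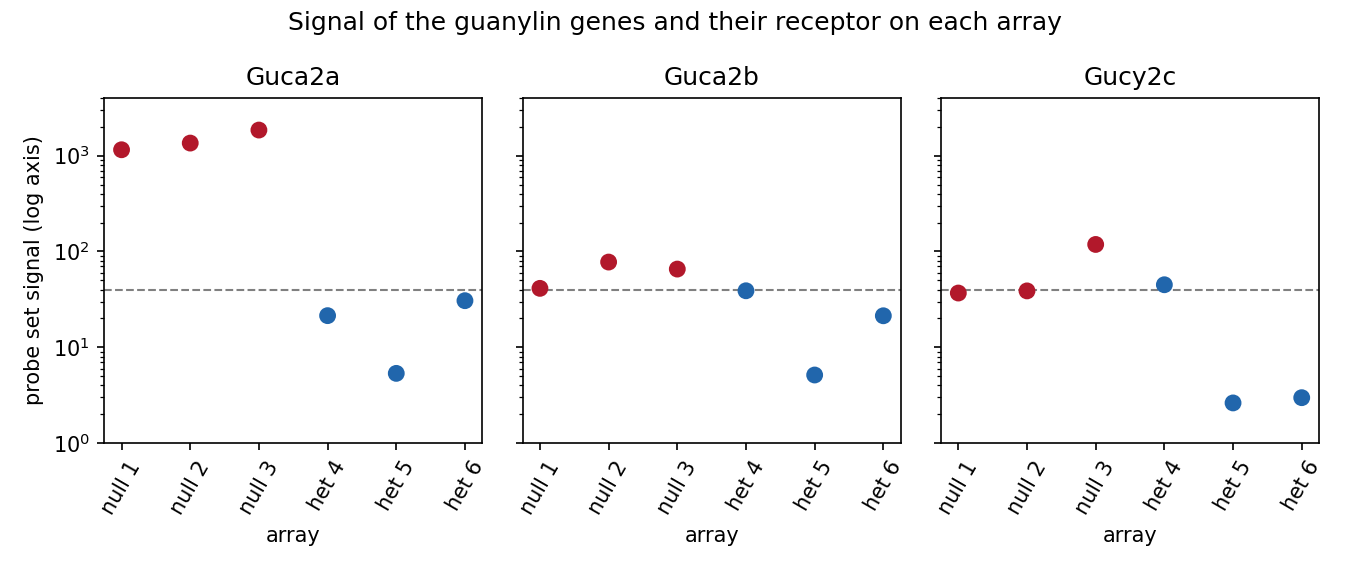
Probe set signal (log axis) of Guca2a, Guca2b and Gucy2c on each of the 6 arrays, null in red and heterozygous (het) in blue, with the dim filter of 39.7 as a dashed line. The null signals of Guca2a lie between 1153 and 1851, while both other genes stay at or below 118.4 on every array.

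The differences of the 3 genes were of unequal size. Within each array the signal of Guca2a was 28.0, 17.5 and 28.3 times that of Guca2b in null 1 to 3, and 0.55, 1.04 and 1.44 times in heterozygous 4 to 6. Probe sets differ in brightness, so only the shift of this ratio between groups is informative. The Guca2a difference exceeded that of Guca2b by 4.32 and that of Gucy2c by 4.04 on the log2 scale (exact permutation p = 0.1 for each, adjusted p = 0.15 over the 3 pairs). Neither p can go below 0.1 with 3 against 3 arrays. In both cases the null and heterozygous ratios did not overlap, which by itself gives this p and adds nothing to it. The ratios to Gucy2c rest on Gucy2c signals of 2.62 and 2.98 on heterozygous 5 and 6, near the floor. Guca2b and Gucy2c differed in their change by −0.28 (exact permutation p = 0.7). Over the 6 arrays Pearson's r was 0.83 for Guca2a with Guca2b, 0.74 for Guca2a with Gucy2c and 0.83 for Guca2b with Gucy2c. The arrays share 2 groups, and heterozygous 5 had the lowest signal for all 3 genes, so these values describe the arrays.

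Other genes of the guanylin and cyclic GMP pathway were read from 4 lists with 52 genes, of which 48 had a probe set and 35 passed the dim filter. In these lists 4 genes rose, Hnf4a, Cdx2, Kcne3 and Cftr, and 0 fell (limma). Of all 12735 genes tested, 0.448% were called higher and 0.0628% lower. At an unadjusted p under 0.05 (limma), 7 list genes were higher and 1 lower, against 462 higher and 548 lower of all genes tested. The median difference of the 35 genes was 0.02, against −0.03 for all genes tested.

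Among effectors and transport targets 2 of 9 tested genes rose, and both are known from epithelial chloride secretion. Kcne3, a potassium channel subunit of the basolateral membrane that sustains chloride exit, had null signals of 649.9, 512.5 and 589.4 and heterozygous signals of 176.9, 111.3 and 130.0. The groups were separate, and the level was 9.22 ± 0.17 against 7.26 ± 0.31 on the log2 scale (SD, n = 3 each, difference 1.96, SE 0.24, adjusted p = 0.0105, limma). With 1 array left out at a time, Kcne3 passed 2 of 6 times, without null 2 and without heterozygous 4. Its adjusted p in the other 4 was 0.0513 to 0.0742.

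Cftr, the chloride channel that the pathway opens, had null signals of 418.8, 506.6 and 462.5 and heterozygous signals of 84.3, 151.7 and 155.6. The groups were again separate, at 8.90 ± 0.13 against 7.15 ± 0.44 on the log2 scale (SD, n = 3 each, difference 1.74, SE 0.27, adjusted p = 0.0408, limma). This call was fragile, since with 1 array left out Cftr passed 0 of 6 times (adjusted p = 0.0720 to 0.192, differences 1.49 to 1.88). Its probe set can also match other transcripts, and the other Cftr probe set was dim on all 6 arrays with a difference of −0.42. With probe sets averaged, Cftr had a difference of 0.66 (adjusted p = 0.617).

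The remaining effectors did not pass. Prkg2, the cyclic GMP kinase of the apical membrane, had a difference of 0.41 with separate groups (adjusted p = 0.700, limma), and the basolateral chloride loader Slc12a2 one of 0.53, also with separate groups (adjusted p = 0.633). Such groups, all null above all heterozygous, made up 6.07% of the genes tested. The anion exchanger Slc26a3 had a difference of 0.70 (adjusted p = 0.603), with a heterozygous mean of 5.54 on the log2 scale, under the dim filter. Slc9a3, the sodium-proton exchanger that cyclic GMP restrains in the gut, was below the dim filter, with signals from 1.22 to 24.3 in null and from 6.65 to 26.7 in heterozygous arrays. The Slc9a3 groups overlapped.

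Of 11 tested genes for breakdown and export of cyclic GMP 0 passed (limma, 1 higher at an unadjusted p under 0.05). That gene was the phosphodiesterase Pde3a, at 6.54 ± 0.08 against 5.27 ± 0.89 on the log2 scale (SD, n = 3 each, difference 1.27, adjusted p = 0.461). Its heterozygous mean lay under the dim filter, so Pde3a was tested only through its null signals. Pde5a, the phosphodiesterase of smooth muscle that is specific for cyclic GMP, ran from 3087 to 14155 in signal over the null arrays and had a difference of −0.75 (adjusted p = 0.796).

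Of 9 tested genes for other guanylate cyclases, their ligands and retinal activators 0 passed (limma, 1 higher and 1 lower at an unadjusted p under 0.05). Npr2, the receptor of C-type natriuretic peptide, was at 8.13 ± 0.35 in null and 8.92 ± 0.29 in heterozygous bladders on the log2 scale, and its groups were separate (SD, n = 3 each, difference −0.79, adjusted p = 0.495). Groups with all null arrays lower made up 7.36% of the genes tested. Nppa, the atrial natriuretic peptide, had a difference of 0.98 with overlapping groups (adjusted p = 0.596). Guca1a and Guca1b, calcium sensors of retinal guanylate cyclases that share only the name with the guanylins, had differences of −0.46 and 0.09 (adjusted p = 0.746 and 0.977).

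**Figure D2:**
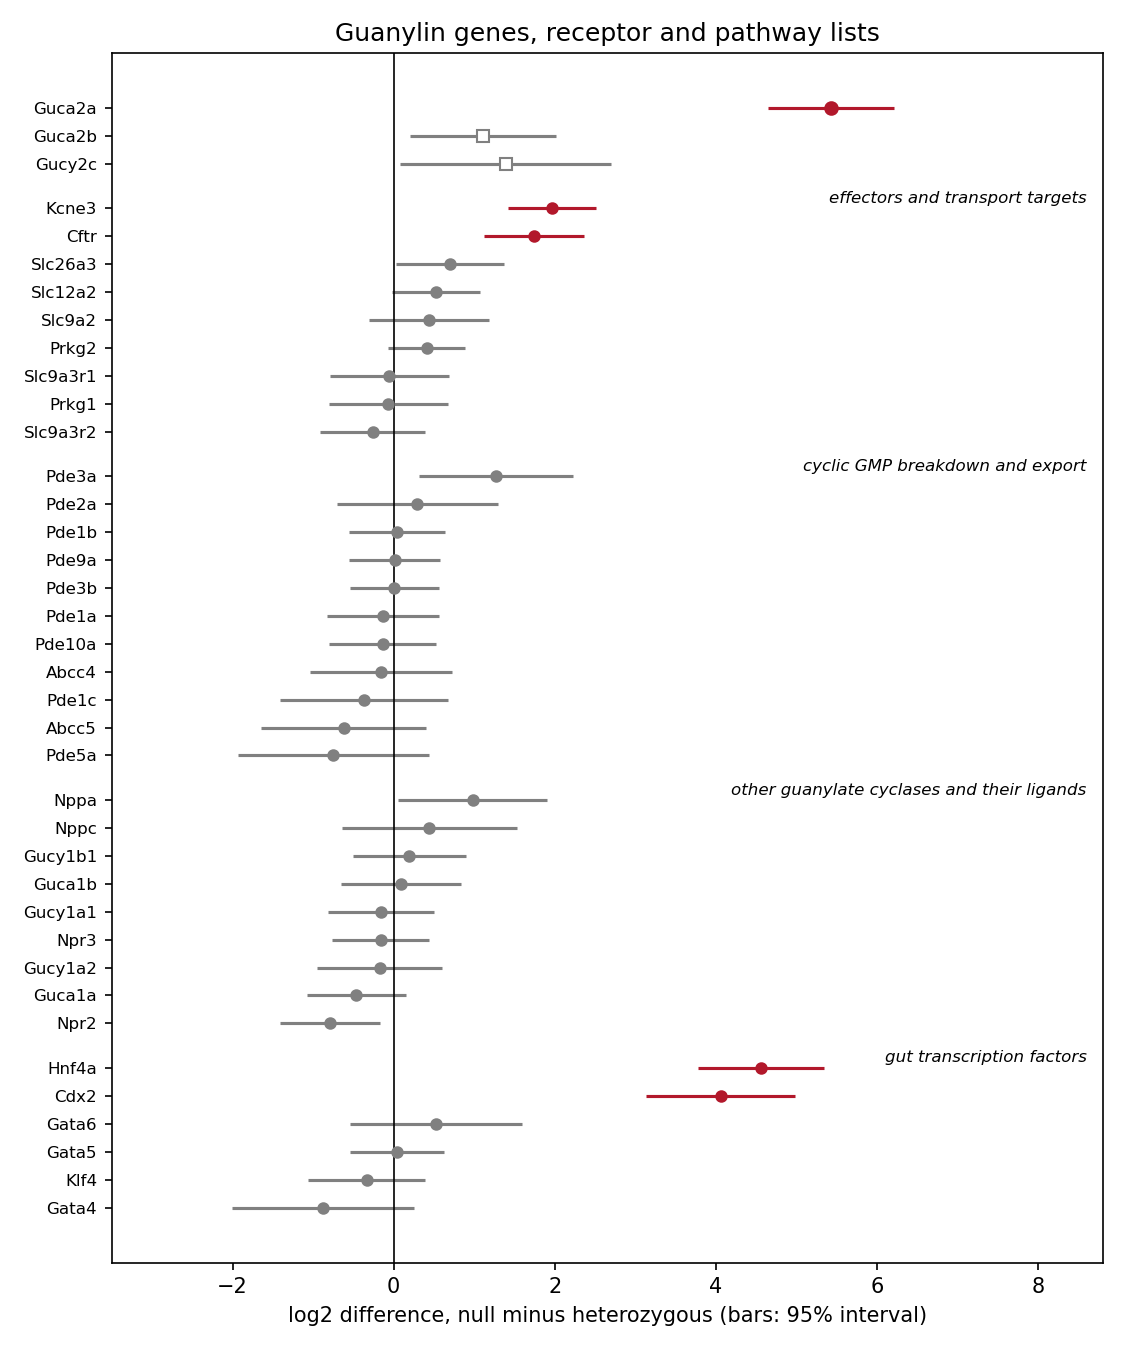
Log2 differences, null minus heterozygous, with 95% intervals, for the guanylin genes, their receptor and the tested genes of the 4 pathway lists, called genes in red. Open squares are Guca2b and Gucy2c, from the fit without the dim filter; Guca2a at 5.43 lies above every gene of the lists, of which Hnf4a at 4.56 is the highest.

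Of 6 tested gut transcription factors 2 rose, Hnf4a and Cdx2, and 0 fell. Hnf4a, a nuclear receptor of gut and liver epithelium, and Cdx2, a homeodomain factor of intestinal epithelium, both have known roles in Gucy2c transcription. Cdx2 had null signals of 393.4, 603.0 and 284.4 and heterozygous signals of 27.5, 3.09 and 3.70 (difference 4.06, SE 0.40, adjusted p = 0.0033, limma). Its groups were widely separate, while its other probe set was dim on all arrays with a difference of −0.40. With a heterozygous mean of 4.67 on the log2 scale, Cdx2 passed the dim filter only through the null arrays. Hnf4a had null signals of 2780, 3997 and 3295 and heterozygous signals of 164.9, 69.4 and 165.7 (difference 4.56, SE 0.34, adjusted p = 8.7e-04, limma). Its probe set can also match other transcripts, its 3 other probe sets had differences from −0.60 to 1.13, and with all of them averaged the difference was 1.19 and did not pass (adjusted p = 0.0885). Cdx2 and Hnf4a passed whichever array was left out. The other 4 did not pass, Gata4 at −0.88, Klf4 at −0.34, Gata6 at 0.52 and Gata5 at 0.04 (adjusted p = 0.738 to 0.988, limma).

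Markers of gut epithelium moved on the same arrays as Guca2a. The share called higher over all 12735 genes tested was 0.448% (limma). These lists were chosen with earlier results of these data known, so their counts are no independent support. Of 9 goblet cell markers 7 were tested and all 7 rose, from 3.37 for Clca1 to 7.45 for Tff3. Tff3, Zg16, Spink4, Fcgbp and Muc2 had heterozygous means under the dim filter (4.35 to 5.78 on the log2 scale). They were tested only through their null signals, and an equally dim marker without a rise could not be tested. Agr2 and Clca1 were above the filter in both groups. Of the markers left out, Retnlb had a difference of 0.04 with overlapping groups and Spdef one of 2.01. The summed goblet signal ran from 26243 to 40223 over null and from 1216 to 1589 over heterozygous arrays. Without heterozygous 5, Muc2 missed the threshold (4.22, adjusted p = 0.0583, limma), and with an offset of 1 Fcgbp and Muc2 did (adjusted p = 0.0591 and 0.0693), as did Zg16, then read from another probe set (adjusted p = 0.631). Of 8 colonocyte markers 3 of 5 tested rose, Lypd8 (7.61), Cdh17 (3.02) and Ceacam1 (2.44), with summed signals of 4601 to 7889 in null and 727.4 to 1026 in heterozygous arrays. Lypd8 and Ceacam1 gave most of the null sums, and Krt20, of the same list, had a difference of −0.35 (adjusted p = 0.889, limma). Krt20 was already bright in heterozygous arrays, at 425.3 to 631.7, and which cells gave its signal was not measured. The carbonic anhydrases Car1 and Car4 of this list were below the dim filter. Of 10 enterocyte markers of the small intestine 2 of 8 tested rose, Fabp1 (5.41) and Vil1 (3.72), with summed signals of 1922 to 7571 in null and 827.4 to 1284 in heterozygous arrays. Lypd8, Cdh17 and Fabp1 also had heterozygous means under the dim filter (4.42, 5.26 and 4.70 on the log2 scale). The part of gut epithelial cells in the Guca2a difference was not tested.

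The size of the guanylin rise was similar on the 3 null arrays, at 5.13, 5.36 and 5.80 above the heterozygous mean on the log2 scale. The mean of the goblet list lay 3.85, 4.40 and 4.40 above its heterozygous mean on the same arrays. That of the enterocyte list was less even, at 0.78, 2.17 and 2.89. For Guca2b the null arrays lay 0.70, 1.41 and 1.22 above the heterozygous mean, against 0.64 on heterozygous 4. Both lists and Guca2a thus had their smallest null excess on null 1, the array whose title carries another first number than the other 5.

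**Figure D3:**
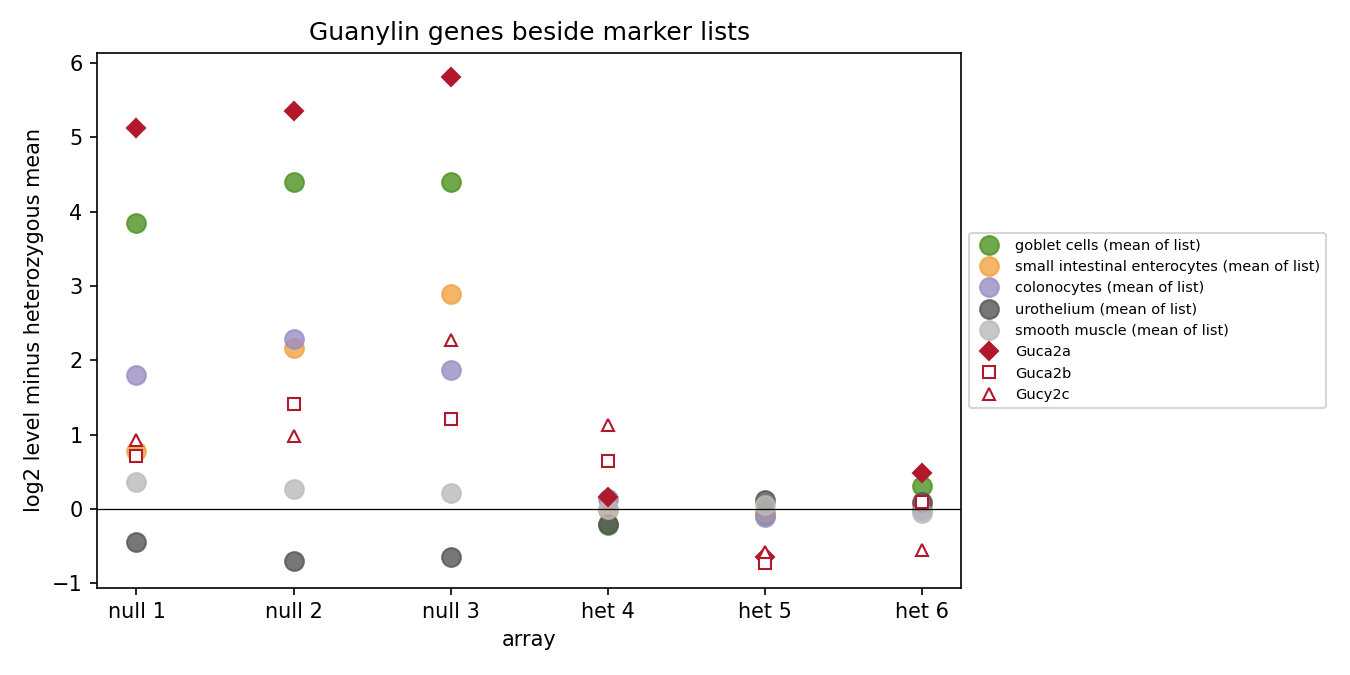
Log2 level minus the heterozygous mean on each array (het, heterozygous), for the guanylin genes and their receptor as single genes and for 5 marker lists as the mean of each list. Guca2a is 5.13 to 5.80 on the null arrays and the goblet list 3.85 to 4.40, while the smooth muscle list stays within 0.36 of zero.

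Markers of further cell types were read on the same arrays. Of 9 kidney markers, a further source of uroguanylin, 8 had a probe set and 0 passed the dim filter, and their summed signal was 105.5 to 162.5 in null and 118.4 to 166.6 in heterozygous arrays. Of 6 tested enteroendocrine markers 0 passed (limma, 2 higher at an unadjusted p under 0.05, Pyy at 1.26 and Sct at 1.05). Pyy and Sct had heterozygous means under the dim filter (5.29 and 5.30 on the log2 scale). Both were tested only through their null signals. Of 3 tested Paneth cell markers 0 passed, with 1 higher at an unadjusted p under 0.05, Mmp7 (2.80, adjusted p = 0.0561, limma), which did pass without heterozygous 6 (3.29, adjusted p = 0.0148). Mmp7 too was tested only through its null signals, with a heterozygous mean of 5.45 on the log2 scale. Of 2 tested tuft cell markers 0 passed, both being lower at an unadjusted p under 0.05, Trpm5 at −1.46 and Dclk1 at −1.12 (adjusted p = 0.170 and 0.576, limma).

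Markers of the labelled tissue were also read. All 8 smooth muscle and all 10 urothelial markers passed the dim filter. That filter uses the mean over the 6 arrays, so passing it does not check the tissue of each array. Of the urothelial markers 1 fell, Upk2 (−3.03, adjusted p = 0.0022, limma), and 0 rose (2 lower and 0 higher at an unadjusted p under 0.05). The groups of Upk1a (−2.36, adjusted p = 0.199) and Krt18 (−0.50, adjusted p = 0.633) were also separate, lower in null. All null arrays were lower in 7.36% of the genes tested. Of the smooth muscle markers 0 passed (limma, 2 higher at an unadjusted p under 0.05). The Grhl3 probe set read 76.6, 21.5 and 119.7 in null and 143.3, 132.9 and 125.6 in heterozygous bladders (difference −0.95, adjusted p = 0.655, limma). The Grhl3 groups did not overlap, all null arrays being lower (exact permutation p = 0.1, the smallest possible). The sources do not place the probe set inside or outside the altered part of the allele, so it is no firm check of the labels. Median signals over all probe sets were 58.2 to 72.4 per array.

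The genes whose pattern was most like that of Guca2a over the 6 arrays, by Pearson's r on the log2 scale among the 12735 tested, were Tff3, Agr2, Pglyrp1, Mllt10 and Clca1. Their r ran from 0.998 for Tff3 to 0.996 for Clca1, and the arrays fall into 2 groups, so a high r needs little more than a large group difference. Tff3, Agr2 and Clca1 are goblet cell markers of the list above, and Pglyrp1, a peptidoglycan-binding protein, rose by 3.63 (adjusted p = 0.0011, limma). Mllt10 had a difference of 0.49 that did not pass (adjusted p = 0.583), and with its probe sets averaged this was −0.16. For Guca2b the closest were Coa4, Vangl1, Atp2c2, Fam151a and Chd1 (r from 0.992 to 0.975), with differences from 0.35 to 0.99. For Gucy2c they were Tmem170, Timm22, Dcun1d3, G2e3 and Fzd5 (r from 0.987 to 0.973), with differences from 0.30 to 0.70. Of these 10 genes, those most like Guca2b and Gucy2c, none was called (limma).

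Neighbours of the guanylin locus were read beside it. The 3 nearest genes with a probe set on each side of the Guca2a and Guca2b pair were Rimkla, Frg2f1 and Foxj3 on one side and Hivep3, Edn2 and Scmh1 on the other. All 6 were tested and 0 passed (limma, 1 higher and 1 lower at an unadjusted p under 0.05), with differences from −0.79 for Scmh1 to 0.70 for Hivep3. Hivep3 was at 9.87 ± 0.13 in null and 9.16 ± 0.34 in heterozygous bladders on the log2 scale (SD, n = 3 per group; adjusted p = 0.512, limma). Around Gucy2c, on chromosome 6, 4 of 6 neighbours were tested and 0 passed (limma, 0 at an unadjusted p under 0.05), with differences from −0.47 for H2aj to 0.12 for Plbd1.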

How the data were processed

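The authors deposited a linear intensity for each probe set. The submitters' processing notes name PLIER 2.0 and Affymetrix Expression Console 1.1, without their roles, and background and normalization steps are otherwise not given in the sources read here. The labels' protocol describes sense-strand DNA targets, while the probe set names are of an array usually given antisense RNA, which could not be settled. Values were taken as log2(value + 16). Of 45101 probe sets, 64 controls and those without exactly 1 gene symbol were left out, and 34945 remained. The brightest probe set by mean over the 6 arrays stood for a gene, and the 30% of genes with the lowest mean (log2 under 5.80) were left out. The 2 groups entered limma 3.58.1 (R 4.3.3; lmFit, eBayes; two-sided, Benjamini-Hochberg adjusted, threshold 0.05), tested on simulated data. Members and lists were chosen with earlier results of these data known. Slc26a3 and Spdef stand on 2 lists each. Named genes were the members, called list genes or up to 3 with the smallest p, the 5 most correlated genes per member, and 3 neighbours on each side. Depth has no counterpart on arrays, whose number limits the precision. Alternatives were the offset, the filter, normalization, probe set summary, limma settings and leaving out each array.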

Additional observations from a re-analysis of the deposited data

How the results depend on the processing

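The Guca2a rise kept its direction and its call in all 16 alternatives (differences 4.18 to 6.43). The Guca2b difference, which had no main test, was 1.78 with an offset of 1 and 0.56 with 64, and 0.74 to 1.43 with 1 array left out. The Gucy2c difference was 2.69 with an offset of 1, 0.65 with 64, and 0.95 to 1.96 with 1 array left out. Neither passed in the 3 and 2 alternatives that tested it (adjusted p = 0.435 to 0.616 and 0.641 to 0.661, limma), and the stricter filter, array weights and trended fits gave no value for them. Called genes, 57 higher and 8 lower in the main setting, numbered 35 and 5 with an offset of 1, 38 and 5 with the dimmest 50% of genes left out, 66 and 10 with an offset of 64, 67 and 9 with trend and robust fitting, and 77 and 12 with array weights. With 1 array left out they numbered 38 to 54 higher and 5 to 9 lower, the 5 lower without null 2 or heterozygous 5. Among the pathway lists 1 gene rose with probe sets averaged (Kcne3), and 2 to 3 with 1 array left out, Cftr being lost each time. Without the filter Spdef, a goblet cell factor, also rose (2.01, adjusted p = 0.0349, limma). No paired analysis was possible because the replicate numbers 1 to 3 and 4 to 6 are not shared between groups. Dim signals limit what can be said of Guca2b and Gucy2c.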
